A study of Homo sapiens with 4 samples.

Results

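The regions described here are distal exonic H3K27ac regions, that is, stretches of acetylated chromatin away from gene starts that touch an exon of a protein-coding gene. The peaks of the 3 deposited lists were merged where they overlapped by at least 1 bp. A merged region was kept if it lay more than 2.5 kb from the start site of every GENCODE protein-coding or lncRNA gene on hg19 and overlapped at least 1 exon of a protein-coding gene. This gave 3853 of 33834 regions. The other regions were 8090 distal intronic ones, 8912 distal intergenic ones and 12979 within 2.5 kb of a gene start, called proximal here.

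H3K27ac was mapped by ChIP-seq with an Abcam antibody in K562, a human erythroleukaemia line that carries the BCR-ABL1 fusion gene and can be driven towards red cell or megakaryocyte features. The conditions were TFAM hairpin 1 (labelled TFAM-sh1), TFAM hairpin 2 (TFAM-sh2) and a control shRNA (shNT), with 1 library and 1 peak list each. All 3 were grown in the same serum-containing medium with no further treatment recorded. An input library was not analysed here. The lists hold no measure of TFAM mRNA or protein, so the extent of the knockdown was not checked here, and a hairpin's effect cannot be told apart from the difference between 1 library and another. There were no replicates, so no p-value is given and the spread between libraries of a condition is unknown. Intervals beside shares are exact 95% binomial (Clopper-Pearson) ones and describe counting error alone, since regions are not replicates of a condition.

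Acetylation of lysine 27 on histone H3 is laid down by the acetyltransferases CBP and p300, removed by histone deacetylases and recognised by bromodomain proteins, and it marks active promoters and enhancers. Some enhancers lie within exons, where the same bases can encode protein and bind transcription factors, and many exons lie beside alternative promoters inside a gene. TFAM packages mitochondrial DNA and is needed for its transcription. Mitochondria are a source of the acetyl-CoA and metabolites, such as the ketone body beta-hydroxybutyrate, that feed or inhibit the enzymes that set histone acetylation.

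Sequences are shown to give examples of how the exon sits in the acetylated stretch. They cover a pair of regions marked in both hairpin lists and not in the control list, and a pair marked in the control list alone. The region with the strongest peaks in all lists is also shown. Windows with a UTR base or fewer than 30 exon bases were passed over. By score percentile INF2 and KCP thus ranked 2 and 5 among gained regions, and CAV2 and NFIA ranked 8 and 10 among lost ones. Each is 300 bp of the hg19 plus strand at the centre of the bases shared by the lists with a peak, and capitals mark exon bases. INF2 encodes a formin that builds actin filaments, KCP a secreted regulator of BMP signalling, CAV2 a caveolin, NFIA a transcription factor active in the erythroid lineage and FCRLB an Fc receptor-like protein of B cells.
INF2, gained, chr14:105167029-105167328, plus strand: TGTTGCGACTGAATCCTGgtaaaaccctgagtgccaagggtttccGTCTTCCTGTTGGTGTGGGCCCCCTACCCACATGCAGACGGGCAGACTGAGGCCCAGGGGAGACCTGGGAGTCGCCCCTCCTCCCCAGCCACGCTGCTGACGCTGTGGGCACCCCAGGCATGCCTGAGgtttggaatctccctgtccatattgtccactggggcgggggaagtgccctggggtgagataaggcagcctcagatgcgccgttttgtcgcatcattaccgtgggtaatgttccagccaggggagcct
KCP, gained, chr7:128542842-128543141, plus strand: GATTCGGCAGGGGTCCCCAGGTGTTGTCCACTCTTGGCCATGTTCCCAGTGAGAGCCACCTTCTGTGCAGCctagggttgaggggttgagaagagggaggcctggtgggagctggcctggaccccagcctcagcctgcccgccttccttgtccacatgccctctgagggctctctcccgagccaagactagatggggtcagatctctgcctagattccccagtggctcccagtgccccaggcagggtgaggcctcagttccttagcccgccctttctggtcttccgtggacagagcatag
CAV2, lost, chr7:115979979-115980278, plus strand: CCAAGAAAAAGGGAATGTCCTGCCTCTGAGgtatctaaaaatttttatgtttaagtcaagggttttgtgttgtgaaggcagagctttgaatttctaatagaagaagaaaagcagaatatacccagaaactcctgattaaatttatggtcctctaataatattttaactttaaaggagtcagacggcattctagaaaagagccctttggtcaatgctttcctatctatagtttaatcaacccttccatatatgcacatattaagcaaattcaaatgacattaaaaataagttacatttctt
NFIA, lost, chr1:61586466-61586765, plus strand: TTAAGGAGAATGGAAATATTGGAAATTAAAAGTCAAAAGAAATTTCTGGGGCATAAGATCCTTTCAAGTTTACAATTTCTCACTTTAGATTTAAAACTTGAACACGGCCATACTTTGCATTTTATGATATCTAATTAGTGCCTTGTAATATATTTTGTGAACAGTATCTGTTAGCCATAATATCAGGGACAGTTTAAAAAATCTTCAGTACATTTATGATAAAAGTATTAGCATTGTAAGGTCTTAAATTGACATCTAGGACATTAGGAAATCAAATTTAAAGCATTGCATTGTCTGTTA
FCRLB, all lists, chr1:161696593-161696892, plus strand: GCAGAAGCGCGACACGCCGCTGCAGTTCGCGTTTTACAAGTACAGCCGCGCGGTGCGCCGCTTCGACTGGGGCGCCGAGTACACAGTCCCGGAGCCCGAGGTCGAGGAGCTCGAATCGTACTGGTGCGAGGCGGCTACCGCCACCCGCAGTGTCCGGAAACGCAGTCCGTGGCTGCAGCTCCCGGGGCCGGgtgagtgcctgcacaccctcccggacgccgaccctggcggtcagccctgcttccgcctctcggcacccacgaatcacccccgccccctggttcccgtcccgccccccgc
The G+C content of these windows was 61.3% at INF2, 62.3% at KCP, 32.3% at CAV2, 29% at NFIA and 71.3% at FCRLB. The contrast between these gained and lost windows is larger than that of their classes, whose regions had medians of 53.3 and 40.5%. Of the 12 lost regions with the highest control percentile, 4 had a G+C content over 50%. Exon bases made up 146 of the 300 at INF2, 71 at KCP, 30 at CAV2, 191 at FCRLB and the whole window at NFIA. At KCP and FCRLB all of these exon bases were coding, while at INF2, CAV2 and NFIA they came from transcripts with no coding sequence annotated there.

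Distal exonic regions were a small and fairly constant part of each list. They held 2582 of 23819 peaks in hairpin 1 (10.8%), 3075 of 27007 in hairpin 2 (11.4%) and 2426 of 23413 in the control (10.4%). The base pairs they covered came to 5.72 Mb in hairpin 1, 7.01 Mb in hairpin 2 and 5.05 Mb in the control. Both hairpin lists covered more of this class than the control list, and the hairpin 2 list was the longest overall. Of the 3853 regions, 2551 had a peak in hairpin 1 (66.2%), 3045 in hairpin 2 (79.0%) and 2403 in the control (62.4%).

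The peaks ranked between those at gene starts and those at other distal sites. The authors' score of a peak was turned into a percentile within its own list, the share of that list's peaks with a lower score. The median percentile of distal exonic peaks was 37.6 in hairpin 1, 39.7 in hairpin 2 and 40.4 in the control. Distal intronic peaks had medians of 26.3, 28.8 and 28.01 in the same lists, and proximal peaks 73.4, 75.7 and 72.1. The order proximal, exonic, intronic was the same in every list, with intergenic peaks (32.3, 33.97 and 31.97) between exonic and intronic. Median peak widths of the exonic class were 1857 bp in hairpin 1, 1891 bp in hairpin 2 and 1795 bp in the control.

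Exon sequence was over-represented among acetylated bases within genes. Exons made up 9.60% of the bases under distal genic peaks in hairpin 1, 10.55% in hairpin 2 and 8.74% in the control. They made up 7.21% of all sequence of protein-coding genes more than 2.5 kb from gene starts. The share was above that of the genes in every list and higher in both hairpin lists than in the control list. Distal exonic regions also had a higher median G+C content than distal intronic ones (48.3 against 44.5%), and its part in these shares was not tested.

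Each region was classed by the lists that held a peak in it. A peak in all 3 lists was found in 1647 distal exonic regions, or 42.7% (41.2 to 44.3), where all regions of the series gave 49.9%. Regions with a peak in both hairpin lists and none in the control, called gained, numbered 325, or 8.43% (7.58 to 9.36), against a background of 5.91% over all regions. Regions with a peak in the control and in neither hairpin, called lost, numbered 229, or 5.94% (5.22 to 6.74), against 7.05%. A missing peak shows only that the caller reported none there, not that the chromatin was unmarked. Peaks in hairpin 1 alone were found in 377 regions (9.78%, background 9.71%), and in hairpin 2 alone in 748 (19.4%, background 16.0%). A further 325 were missing from hairpin 1 alone and 202 from hairpin 2 alone.

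The exonic regions differed from the other distal classes in being marked in all lists more often and lost less often. A wide merged region has more room to touch an exon, so the rule itself favours wide regions. Median widths were 2042 bp for exonic, 1432.5 bp for intronic and 1467 bp for intergenic regions. Within the exonic class they were 2954 bp for regions in all lists and 1055 bp for lost ones. The part of width in the shares below was not tested. The share in all lists was 42.7% of exonic regions, against 26.4% of distal intronic and 32.3% of distal intergenic ones, and 78.6% of proximal ones. The lost share was 5.94% of exonic regions, against 11.4% of distal intronic and 10.4% of distal intergenic ones, and these intervals did not overlap. The gained share of 8.43% overlapped in its interval with the 7.94% of distal intronic regions (7.36 to 8.55) and lay above the 6.62% of intergenic ones (6.11 to 7.16). Gained regions therefore outnumbered lost ones 1.42 to 1 in the exonic class, against 0.70 and 0.64 to 1 in the intronic and intergenic classes, and 1.42 to 1 in the proximal class. With the lists cut to equal lengths, the exonic class had 253 gained and 284 lost regions, a ratio of 0.89 against 0.42 for intronic and 0.39 for intergenic regions. In the higher-scoring 50% of each list it had 121 gained and 135 lost, a ratio of 0.90 against 0.45 and 0.69. Gained exonic regions thus did not outnumber lost ones at these settings, while the exonic ratio stayed above that of the other distal classes.

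**Figure D1:**
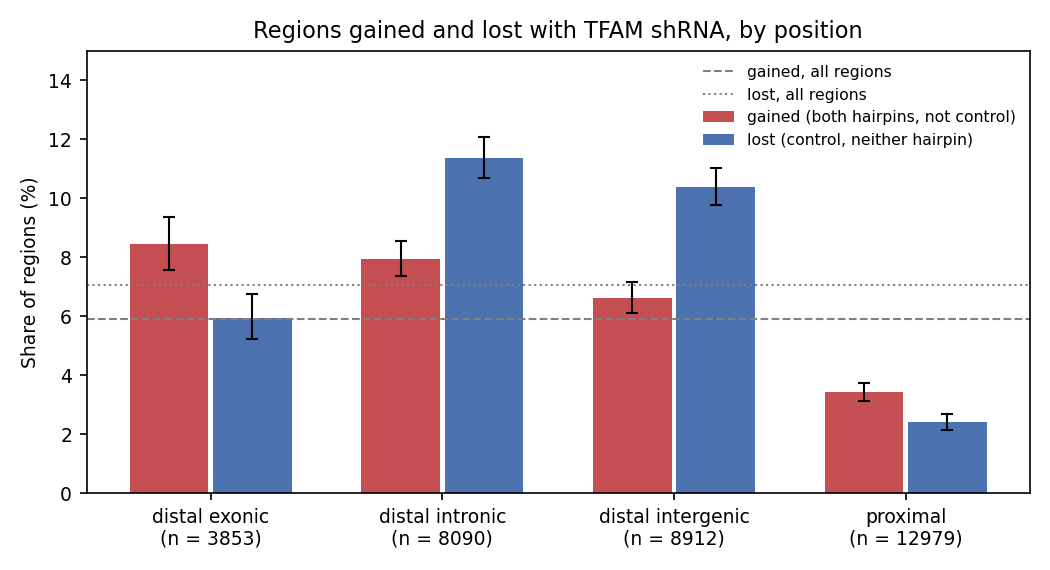
Share of regions gained (peak in both hairpin lists and none in control) and lost (peak in control and neither hairpin list), in percent, by position; bars are shares, error bars exact 95% intervals for counting error, and grey lines the shares over all regions. The lost bar is lower for exonic regions (5.94%) than for intronic (11.4%) and intergenic ones (10.4%), while the gained bars differ less.

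Base composition moved with these classes. The median G+C content was 53.3% in gained, 40.5% in lost and 48.8% in commonly marked exonic regions. Exonic regions as a whole had a median of 48.3%, against 44.5% for distal intronic, 46.1% for distal intergenic and 53.3% for proximal regions. All regions of the series were then sorted by G+C and split at 5 equal shares, with edges at 41.9, 46.5, 51.0 and 56.5%. The gained share of exonic regions was 2.80% in the lowest group, then 6.43, 8.94, 10.0 and 14.6% up to the highest. The lost share was 14.2% in the lowest group, then 5.35, 2.53, 3.08 and 2.27%. Similar gradients were seen in the intronic and intergenic classes, where the lost share of the lowest group was 21.7% and 22.1%.

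Within the 3 groups of lowest G+C the exonic class still had the smallest lost share of the distal classes. In the lowest group the 14.2% lost (12.05 to 16.7) lay below the intronic 21.7% (20.2 to 23.2) and the intergenic 22.1% (20.4 to 23.8), and in the third group 2.53% (1.42 to 4.14) lay below 5.27% (4.19 to 6.53) and 5.52% (4.53 to 6.64). In the highest group the lost shares of 2.27, 3.32 and 3.65% had overlapping intervals. The gained share at matched G+C was not above the intronic one except in the highest group, where it was 14.6% (12.3 to 17.2) against 12.8% (10.1 to 15.8), with overlapping intervals. The part of G+C content and of region width in the remaining differences was not tested.

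**Figure D2:**
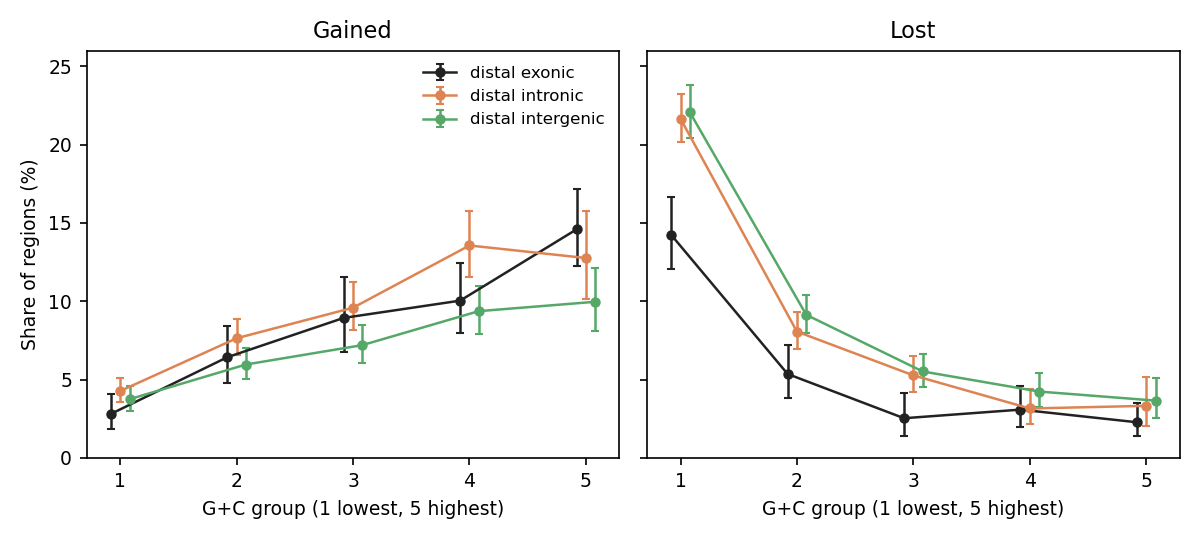
Share of regions gained (left) and lost (right), in percent, in 5 G+C groups of the whole series from lowest to highest, for distal exonic, intronic and intergenic regions, with exact 95% intervals for counting error. In each class the gained share is higher and the lost share lower in the highest group than in the lowest, with small turns between neighbouring groups, and the exonic lost share starts lower, at 14.2%.

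In regions marked in all lists, the width covered by peaks was compared as a log2 ratio, hairpin over control, where a positive value means a wider domain in the hairpin library. The median exonic region was covered over 2254 bp in hairpin 1, 2452 bp in hairpin 2 and 2028 bp in the control. Its median log2 ratio was 0.14 for hairpin 1 (quartiles -0.18 and 0.56) and 0.25 for hairpin 2 (-0.09 and 0.69). The medians over all 16871 regions in all lists were 0.05 and 0.12, which is the shift shared by the whole list, and both exonic medians lay above it. Intronic regions gave 0.02 and 0.11, and intergenic ones 0.00 and 0.09, so the exonic class had the highest pooled median in both hairpins. The ratio also followed G+C, with exonic medians for hairpin 1 and hairpin 2 of -0.23 and -0.11 in the lowest group and 0.35 and 0.45 in the highest. Intronic regions of the highest group had medians of 0.45 and 0.54, above the exonic ones, so the pooled order did not hold at every G+C content.

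Regions at least 1.5-fold wider in both hairpins than in the control numbered 248 of 1647 exonic ones, or 15.1%, against a background of 7.21% over all regions in all lists. The same share was 10.6% of intronic, 7.60% of intergenic and 5.13% of proximal regions. Regions at least 1.5-fold narrower in both hairpins numbered 56, or 3.40%, against a background of 2.20%. Strong widening was thus most frequent in the exonic class when all G+C contents were pooled. It was not so within each G+C group: in the highest group it was found in 22.4% of exonic, 30.1% of intronic and 11.3% of intergenic regions, and in the lowest in 5.79, 2.08 and 2.92%. The narrowed share of 3.40% was below that of intronic (4.86%) and intergenic regions (4.27%).

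**Figure D3:**
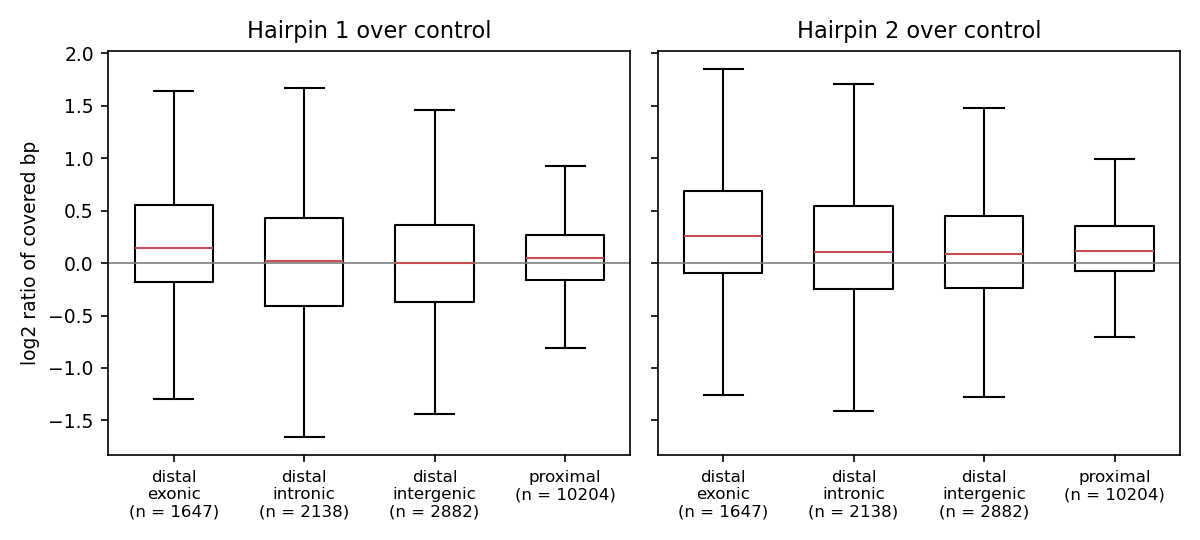
Log2 ratio of base pairs covered by peaks, hairpin over control, in regions with a peak in all 3 lists, by position; boxes show quartiles with the median in red, whiskers reach the furthest point within 1.5 box lengths. The exonic class has the highest median (0.14 and 0.25) and upper quartile in both panels, while its lower quartile lies below that of the proximal class.

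The exons involved were mostly internal or coding. A canonical transcript's exon was touched in 66.0% of regions (2542), while the other 34.03% touched only exons of other transcripts. A canonical internal exon was touched in 52.5%, a canonical last exon in 17.9%, coding sequence in 67.8% and a UTR in 62.2%, and a region could touch several. The centre base of the region lay in an exon in 32.2%, so that in most cases the exon lay to the side of the domain's middle. Coding and non-coding regions had gained shares of 8.73 and 7.82% and lost shares of 5.44 and 7.01%, all with overlapping intervals.

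Regions that spanned several exons were more often marked in all lists and less often lost. In 839 regions at least 2 canonical exons were covered, of which 82 were gained (9.77%) and 18 lost (2.15%), and 436 were marked in all lists (52.0%). In the 89 regions with at least 5 canonical exons, 66 were marked in all lists (74.2%), 4 were gained and 0 lost, and 25 of the 66 were at least 1.5-fold wider in both hairpins (37.9%). Their median log2 ratios were 0.52 in hairpin 1 and 0.78 in hairpin 2. These regions were also wider than the class as a whole, with median widths of 2551 bp for at least 2 exons and 3262 bp for at least 5, against 2042 bp, and those with at least 5 had a median G+C of 58.4%. Lost regions had a median width of 1055 bp and those in all lists 2954 bp, and the part of width and G+C in these values was not tested.

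Many regions of the class sat at another transcript start of the same or a neighbouring gene. An annotated transcript start lay within the region in 43.2% and within 1 kb in 51.5%. Regions with a start inside were marked in all lists in 52.6% and lost in 4.26%, against 37.4% and 7.33% of regions with no transcript start within 1 kb. Among regions in all lists, those with a start inside had median score percentiles of 52.7 in hairpin 1, 56.4 in hairpin 2 and 51.2 in the control, and those with none within 1 kb had 43.3, 49.0 and 46.0. Regions at alternative starts were thus better scored and more often shared in these lists. The gained shares, 7.51 and 8.50%, had overlapping intervals.

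Shares also varied with distance from gene starts and place in the gene. The gained share was 8.72% at 2.5 to 5 kb from the nearest gene start, 10.2% at 5 to 20 kb, 6.77% at 20 to 100 kb and 3.95% beyond 100 kb. The last band held 152 regions, of which 6 were gained and 12 lost. The interval at 5 to 20 kb (8.78 to 11.7) lay above those of both further bands (5.55 to 8.17 and 1.46 to 8.39). That at 2.5 to 5 kb (6.28 to 11.7) overlapped all the others. Median G+C content also fell with distance, at 53.4, 50.4, 45.4 and 42.3% in the same bands, and its part in these shares was not tested. When each host gene was divided into 5 equal parts from its 5' to its 3' end, 13.1, 14.8, 17.5, 21.5 and 33.2% of the regions fell in them. The share of commonly marked regions that were at least 1.5-fold wider in both hairpins was 8.15% in the 5' part, then 11.6, 16.7, 17.0 and 18.2% towards the 3' end. More of the distal exonic regions thus lay in the 3' parts of genes, and the widening was more frequent there. The exon sequence in each part was not counted, so the shares of regions have no baseline. Because sites near gene starts were removed by the rule, the low share of the 5' part follows in part from the selection.

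**Figure D4:**
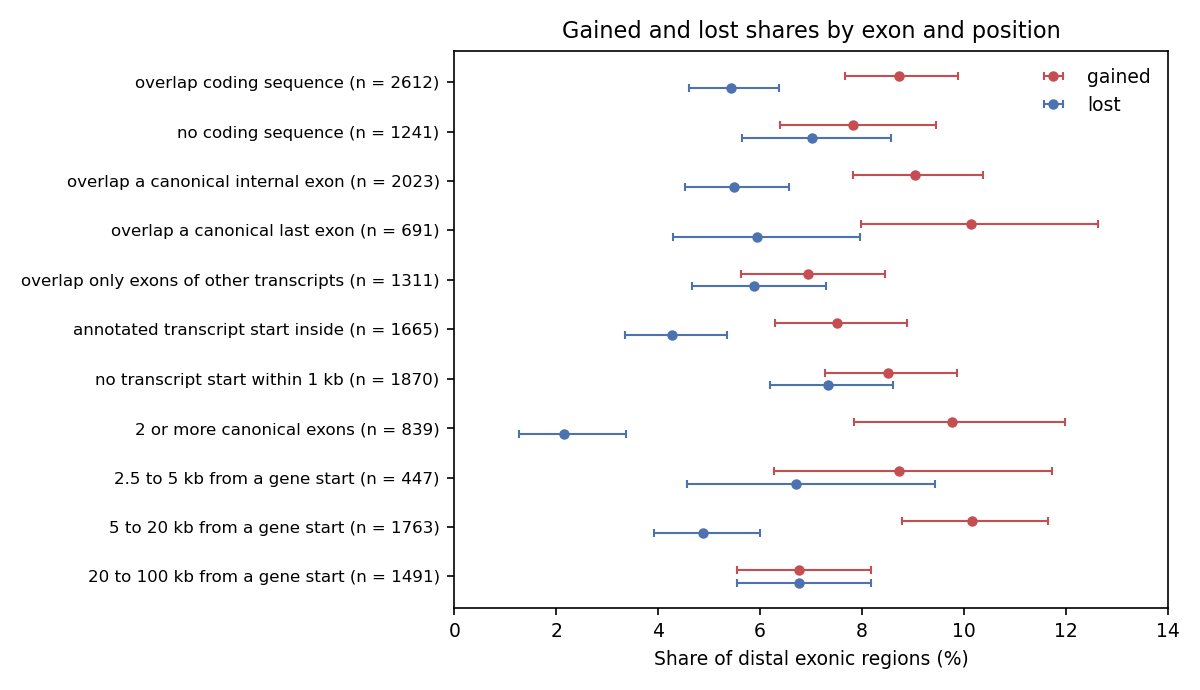
Gained and lost shares of distal exonic regions, in percent, by the kind of exon, transcript start and distance to the nearest gene start, with exact 95% intervals for counting error; n is the number of regions. Of the kinds plotted, regions with 2 or more canonical exons have the lowest lost share (2.15%), and at 20 to 100 kb both shares are 6.77%.

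Host gene promoters were mostly listed the same way in all libraries. A promoter, taken as 1 kb on each side of the gene's start, was marked in all lists for 64.4% of regions and in no list for 24.5%. Over all protein-coding genes it was marked in all lists in 50.3% and in no list in 41.4%. Among the 325 gained regions the host promoter was marked in all lists in 62.2%, in no list in 27.7% and gained itself in 3.08% (10 regions), against 2.00% of the whole class. Among the 229 lost regions these shares were 58.1 and 29.3%, and the host promoter was lost in 2.62% (6 regions), against 1.19% of the whole class. Most gained and lost exonic regions therefore lay in genes whose promoter was listed the same way in all 3 libraries. The same was true of the whole class and of all protein-coding genes, so this does not set gained and lost regions apart.

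Short sequence motifs, 8 in all, were counted on both strands of 300 bp windows at the centre of each region's shared bases. The GATA motif AGATAA, bound by GATA1 in red cell precursors, was found in 18.9% of exonic windows, against 21.8% of intronic, 20.1% of intergenic and 7.54% of proximal ones and 15.6% of all windows. The E-box CAGCTG was found in 19.2% of exonic windows, against 15.96, 16.97 and 16.2% in the same classes and 16.7% of all. The exonic class was thus near the other distal classes for GATA and slightly above them for this E-box. Within the class, the E-box was present in 93 of 325 gained windows, or 28.6% (23.8 to 33.9), against 17.03% of lost ones (12.4 to 22.5) and 18.5% of those in all lists (16.6 to 20.4). The GATA motif was present in 11.1% of gained, 20.96% of lost and 18.8% of commonly marked windows. This motif was less frequent in G+C-rich exonic windows, at 29.9% in the lowest and 6.82% in the highest G+C group. From the lowest to the highest group it was in 19.2, 12.5, 9.43, 12 and 9.02% of gained windows, against 30.6, 24.6, 21.1, 12.6 and 5.52% of those in all lists, so the order turned in the highest group.

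Within G+C groups the E-box share of gained windows was also above that of windows in all lists, but the groups were small. From the lowest to the highest G+C group it was found in 15.4, 29.2, 28.3, 33.3 and 28.7% of gained exonic windows, against 11.02, 17.3, 22.2, 20.6 and 22.4% of those in all lists, with overlapping intervals in every group. Among lost windows it was found in 15 of 132, 6 of 40, 6 of 15, 6 of 23 and 6 of 19 in the same order of groups. Gained windows thus had a higher share than lost ones in the 2 lowest groups and the fourth, and a lower one in the other two. Gained intronic, intergenic and proximal windows held it in 19.5, 17.3 and 20.3%. AP-1 and NF-E2 sites (TGANTCA) were in 10.5% of gained and 14.9% of lost exonic windows, with overlapping intervals, and KLF sites (CACACCC) in 10.2 and 5.24%. ETS (CCGGAAG), CRE (TGACGT), RUNX (TGTGGTT) and NRF1 (TGCGCA) letters were in 3.19, 4.33, 5.94 and 2.36% of exonic windows, against 5.17, 4.34, 4.84 and 3.91% of all windows. None of the 8 motifs contains another. A match is a string of letters and was not set against any binding data.

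The gained regions with the highest peak percentiles in both hairpin lists lay in genes of varied function. The foremost was at NR4A2, an orphan nuclear receptor induced by many signals, at chr2:157194658-157201214, where peaks covered 6258 bp in hairpin 1, 6557 bp in hairpin 2 and 0 bp in the control. It touched a UTR exon of another transcript and lay 5425 bp from the gene's canonical start, and the NR4A2 promoter itself was also gained. At INF2 (chr14:105166033-105168173) the peaks covered 1706, 2141 and 0 bp, and at MAP2K1, which encodes the kinase MEK1, 1890, 2291 and 0 bp over an internal coding exon at chr15:66772820-66775110. In both of these genes the promoter was marked in all lists. At KCP the peaks covered 1602, 2787 and 0 bp over 3 canonical exons, and no list marked its promoter.

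The other regions of this group lay in SPEG (a striated muscle kinase), CD99L2 (an adhesion protein), TCEA3 (a transcript elongation factor), ADARB1 (an RNA-editing deaminase), PPFIA3 (a synaptic scaffold), TTLL10 (a tubulin ligase family enzyme), RYR1 (the calcium release channel of muscle) and STK31 (a kinase of the testis). Of the 12, 8 held an annotated transcript start, 9 touched coding sequence and 9 had a G+C content over 50%. Peaks were wider in hairpin 2 than in hairpin 1 in 9 of the 12, and in 197 of all 325 gained regions (60.6%).

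The lost regions with the highest control percentile lay in genes of varied function too. BCL9L, a coactivator of beta-catenin, had 0 bp in hairpin 1, 0 bp in hairpin 2 and 4215 bp in the control at chr11:118780893-118785107, with an annotated transcript start inside the region. KCNN4, the calcium-activated potassium channel of red cells, had 0, 0 and 4766 bp over 2 canonical exons at chr19:44276708-44281473. These were among the 4 of the 12 with a G+C content over 50%, while the other 8 were under 40%.

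Those 8 lay in STAMBPL1, SLIT2, FAM9C, CAV2, RXFP1, NFIA, SOX5 and RNF19A. SLIT2 encodes an axon guidance cue and had 0, 0 and 4267 bp over an internal coding exon. At NFIA the lost region, of 2130 bp, lay wholly in an exon of another transcript. NFIA also held 5 further regions of the class, which make the gene a mixed case. A nearby region, at chr1:61580456-61582966, was gained with 1230, 2274 and 0 bp.

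The regions with the highest scores in all lists were all at alternative transcript starts. FCRLB led, at chr1:161694991-161698406, with 2660 bp in hairpin 1, 3416 bp in hairpin 2 and 2827 bp in the control, and score percentiles of 99.4, 98.7 and 99.2. SGK1, a kinase of stress and hormone signalling, had 2717, 2719 and 2795 bp, and ZNF343, a zinc finger gene, 2515, 2555 and 2513 bp. At SGK1 and ZNF343 the widths were close in all 3 libraries, while at ARID1B, a SWI/SNF subunit, they were 2050, 3489 and 3578 bp. An annotated transcript start lay in all 10 regions of this group, which included HLCS (which attaches biotin to carboxylases), TULP4, ARID1B, DPYSL2 and UNKL. A pair of them, at POM121C and POM121, lies in near-identical copies of a nuclear pore gene, so reads there are uncertain even though only reads with 1 place in the genome were kept.

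**Figure D5:**
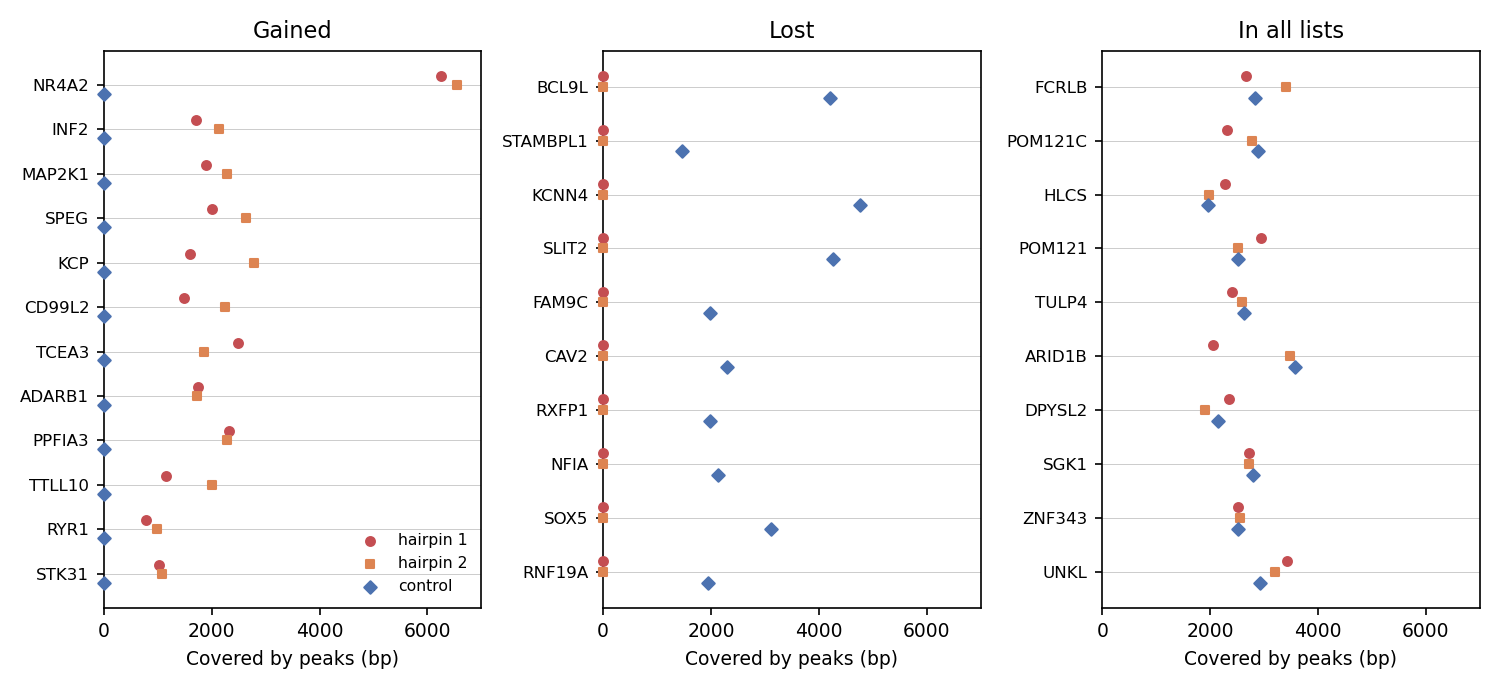
Base pairs covered by peaks in hairpin 1, hairpin 2 and control, at the 12 gained regions, 10 of the 12 lost regions and the 10 regions in all lists with the highest score ranks, each labelled by its host gene. Control points lie at 0 in the gained panel and hairpin points at 0 in the lost panel by the definition of those classes.

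Among regions with 1 peak in each list, the largest widening, by the mean log2 ratio of both hairpins, was at HSPG2, which encodes the matrix proteoglycan perlecan, with 1896 bp in hairpin 1, 3180 bp in hairpin 2 and 513 bp in the control. FAM178B (7445, 1810 and 843 bp), MSI2, an RNA-binding protein of blood stem cells (1587, 4561 and 663 bp), LRRC56 and FAM193B followed. All 5 had a G+C content over 50%. The largest narrowing by the same mean was at MRPS27, a mitochondrial ribosomal protein, with 981, 742 and 2870 bp. EZH2, the methyltransferase of Polycomb complex 2, had 2185, 1425 and 5111 bp, and FYN, a Src family kinase, had 2847, 1005 and 5343 bp. The 5 narrowed regions, with HMCN1 and SPAG6, had G+C contents of 33.7 to 40.03%, so in this group too the direction followed base composition.

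Exonic regions were spread thinly over genes. They fell in 3197 of 20149 protein-coding genes, counted by symbol (15.9%), and 139 genes held at least 3. Host genes were long, with a median of 59.2 kb against 27.2 kb for all genes. MACF1, a cytoskeletal linker, held 7 regions, of which 4 were in all lists and 0 gained or lost. RERE, ST6GAL1, CDH23 and NFIA held 6 each. In NFIA, 0 of the 6 regions were in all lists, while RERE and ST6GAL1 had 4 and CDH23 had 3 in all lists. One region of the protocadherin gamma cluster touched exons of 22 genes that share their 3' exons.

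A pair of genes was picked after its values were seen. BCR, a partner in the fusion of K562, held 5 regions, of which 2 were gained, 2 were in hairpin 2 alone and 1 was in all lists with 6927, 2978 and 1461 bp at chr22:23588003-23594929. ABCC1, a drug efflux pump, held 5 regions with 3 gained and 2 in all lists. Its gained regions had 1463, 940 and 0 bp, 1058, 786 and 0 bp, and 1620, 1539 and 0 bp. Without chromosomes 9 and 22, which carry the partners of the fusion, gained exonic regions outnumbered lost ones 1.34 to 1.

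Lists of genes for red cell development, mitochondria, acetylation and cell identity were examined next, as counts with no test, where 15.9% of all genes held a member. Of the whole class 8.43% of regions were gained and 5.94% lost, against 5.91 and 7.05% over all regions. Each list held too few regions to set against these shares. Of 20 erythroid transcription factors, 6 held 9 regions, with 4 in all lists, 0 gained and 1 lost. LMO2, a bridging factor of the erythroid complex, was steady at 4725, 5828 and 5381 bp. SOX6, a repressor of fetal globin, had regions of 3234, 3814 and 3366 bp and of 4883, 5487 and 4577 bp in all lists, and a region missing from hairpin 1 alone. RUNX1 had a region of 5965, 0 and 5675 bp, and a small region lost with 807 bp in the control. At RUNX1 hairpin 1 and control had peaks of like width where hairpin 2 had none, and no other region of this list was missing from hairpin 2 alone.

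Red cell membrane and surface genes held 12 regions in 8 of 24 genes, with 3 in all lists, 0 gained and 1 lost. EPB41, the membrane skeleton protein 4.1, had 7088, 0 and 7234 bp, and RHCE, a Rh blood group gene with a near-identical neighbour, RHD, had 5639, 0 and 4027 bp. Another 4 regions were in hairpin 2 alone, at ADD2, DMTN, RHD and a further exon of EPB41 (0, 1020 and 0 bp). The lost region was at AQP1, the water channel, with 0, 0 and 2691 bp. Of 10 globin genes, 3 held 2 regions. The region at HBE1 and HBG2 (chr11:5520573-5527651) was in all lists with 2935, 4990 and 6501 bp, and that at HBZ had 3679, 0 and 4109 bp.

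Heme and iron genes gave few regions. Of 15 heme genes, ALAS2, the first enzyme of heme synthesis in red cells, had 1230, 2881 and 1335 bp, and UROS had 3158, 3718 and 3381 bp, both in all lists. Of 15 iron genes, 3 held a region each, and 2 were gained, where the background is 5.91% for all regions and 8.43% for the class. With 3 regions, these counts are too few to set against the backgrounds. NCOA4, the receptor that delivers ferritin for breakdown, had 5868, 6559 and 0 bp at chr10:51571813-51578848. TFR2, a transferrin receptor, had 1106, 814 and 0 bp.

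Lists of mitochondrial function differed in how many genes held such a region, but the counts were small. They were not tested against the 15.9% of all genes. Median gene lengths ran from 13.1 kb for oxidative phosphorylation to 42.0 kb for ketone body and fatty acid oxidation. The part of gene length was not tested. Of 16 genes for the upkeep and expression of mitochondrial DNA, 1 held a region (6.25%), MTERF2, in hairpin 1 alone with 1512, 0 and 0 bp. Of 30 genes of oxidative phosphorylation, 3 did (10%), and 1 was gained, ATP5F1C, a subunit of ATP synthase, with 977, 1895 and 0 bp. Of 27 genes of the TCA cycle and acetyl-CoA supply, 7 held 8 regions (25.9% of genes), with 4 in all lists and 0 gained or lost. Of 17 genes of ketone body and fatty acid oxidation, 5 held 6 regions (29.4% of genes), with 0 in all lists, 1 gained, and 1 lost at SLC16A1, a carrier of lactate and ketone bodies (0, 0 and 1814 bp). Of 17 glycolysis genes, 1 held a region, HK1, in hairpin 2 alone with 0, 1208 and 0 bp.

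Enzymes that set histone marks had regions of every class. Of 28 acetyltransferases and deacetylases, 8 held 9 regions, with 2 in all lists, 2 gained and 2 lost, where the backgrounds over all regions are 5.91% gained and 7.05% lost. HDAC4 had 1292, 2160 and 0 bp over a coding exon and HDAC7 had 5287, 2540 and 0 bp, both gained. HDAC9 had 0, 0 and 4826 bp and SIRT5, a mitochondrial deacylase, 0, 0 and 864 bp, both lost. HDAC5 held both regions found in all lists, with 2717, 2491 and 2486 bp and with 5405, 3510 and 4000 bp. With 9 regions, these counts are too few to set against the backgrounds. Of 23 genes of histone methylation and bromodomain proteins, 8 held 11 regions, with 4 in all lists, 0 gained and 1 lost at EZH2 (0, 0 and 684 bp).

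Of 21 genes of BCR-ABL, EPO and growth signalling, 5 held 9 regions, with 3 in all lists and 3 gained. The gained share was 8.43% of the whole class and 5.91% of all regions, and 9 regions are too few to set against it. Of the 3 gained regions 2 were those of BCR, already described, and 1 was at GAB2, a signalling adaptor (946, 953 and 0 bp). Of 17 cell cycle inhibitor and stress genes, 3 held 5 regions, with 2 in all lists, 0 gained and 0 lost. Among markers of other blood cells, 3 of 14 megakaryocyte genes held 4 regions, with 3 in all lists. ITGB3, the platelet integrin, had 3725, 7248 and 4254 bp, and GP6, the collagen receptor of platelets, had a gained region of 1898, 505 and 0 bp. Of 15 myeloid genes 2 held a region, including AZU1, a granule protein, gained with 1496, 867 and 0 bp, and of 14 lymphoid genes 2 did, with 1 region in all lists and 1 in hairpin 2 alone. Promoters of a smaller set of markers were marked in hairpin 1, hairpin 2 and control in 6, 4 and 6 of 10 erythroid, 2, 2 and 3 of 7 megakaryocyte, 2, 1 and 1 of 7 myeloid and 2, 0 and 0 of 7 lymphoid genes, with the part of any cell type's share in the results not tested.

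Regions at the 2.5 kb limit were of several classes on both sides. The nearest regions inside it were at MED29, a Mediator subunit (2503 bp from a start, gained, with 1907, 2802 and 0 bp), GDF2 (2528 bp), EPN3 (2530 bp) and DNAJA3 (2542 bp), and the last 3 were in all lists. The nearest exonic regions just outside it were at TTC5 (2483 bp) and FAM187B (2481 bp), in all lists, CAPN12 (2475 bp), gained with 2091, 1445 and 0 bp, and ATOSB (2474 bp), missing from hairpin 1 alone. Both sides of the limit thus held gained and commonly marked regions.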

How the data were processed

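H3K27ac peak lists of 3 K562 libraries (TFAM hairpin 1, TFAM hairpin 2, control shRNA) were used, grouped by sample title. The authors deposited a start, end and score per peak, 1 list per library with no pooling. The score is the authors' own and served to rank the peaks of a list, never to compare lists. Reads that fitted 1 place in hg19 were kept, per the labels' protocols, and the submitters' processing notes name hg19, Picard and Bowtie 0.12.7. The peak caller's version and settings and the read depth are not given in the sources used here. An input library was not analysed here.

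Genes were from GENCODE release 44 mapped to hg19, with the canonical transcript's start as gene start. Positions are 1-based. Unions, classes, distances and exon overlaps were computed in Python 3.11.15 with SciPy 1.17.1, numpy 2.4.6, matplotlib 3.10.9 and pandas 2.3.3, and were tested on simulated data: classes, distances and exon bases came out exactly in 20 of 20 simulations. Named regions were the 12 gained and 12 lost with the best score percentiles, the 10 in all lists, the 5 most widened and 5 most narrowed, genes with most regions, up to 3 genes per list (further list members were chosen after their values were seen) and those nearest the limit. Alternatives changed the peaks used, start sites, exons counted, overlap, distance, chromosomes and hairpins. Some genes that the rule names are left out of this text. The requirement of at least 30 exon bases in a printed window was added after values were seen. The regions and gene lists were chosen with earlier results of these data known.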

Additional observations from a re-analysis of the deposited data

How the results depend on the processing

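Of the values for distal exonic regions, those not named here stayed within 1.5 times for counts, within the interval for shares and within counting noise for medians. In the higher-scoring 50% of each list there were 1399 regions, 121 gained and 135 lost, 35.95% in all lists and width medians of 0.11 (hairpin 1) and 0.17 (hairpin 2). With the starts of every annotated transcript there were 1567 regions, 137 gained, 112 lost, 37.7% in all lists and a hairpin 1 median of 0.11. Canonical exons gave 2542 regions, 152 lost and medians of 0.18 and 0.30, coding sequence 142 lost and a hairpin 2 median of 0.29, and an exon at the centre base 1240 regions, 104 gained, 78 lost and 36.5% in all lists. Hairpin 1 set alone against the control gave 702 gained and 554 lost, and hairpin 2 alone 1073 and 431. The gene record's 5' end as start gave 48.3% in all lists and medians of 0.11 and 0.20, at least 100 bp of exon 44.4%, and no peak of 5 kb or wider 40.2%. The middle 3 of the 5 G+C groups, chosen after seeing the data, gave 176 gained, 78 lost and a hairpin 2 median of 0.33. No width median changed sign. The cause of these shifts was not tested beyond the change in regions that each setting makes. Gained outnumbered lost at every setting except equal list lengths (253 and 284) and the higher-scoring 50%.

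No paired analysis was possible because each condition had 1 library. With 1 library per condition, no difference here has a replicate check, and the unknown read depth limits what a missing peak can show.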

Other observations

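Broader gene families held distal exonic regions in unequal shares. In the whole class 8.43% of regions were gained and 5.94% lost, against 5.91 and 7.05% over all regions. The gained and lost counts of the families were not tested against these shares. Of 48 myosins and plexins, 20 held 23 regions (41.7%, median gene length 103 kb), with 2 gained and 2 lost. Of 44 collagen genes, 9 held 13 regions, with 3 in all lists, 0 gained and 2 lost. Of 545 zinc finger genes, 49 held 49 regions (8.99%), with 22 in all lists, 4 gained and 3 lost. Of 61 kinesins and dyneins, 12 held 15 regions, with 0 gained and 1 lost. Of 373 solute carriers, 57 held 66 regions (15.3%), with 31 in all lists, 6 gained and 3 lost. The shares followed gene length only in part. Zinc finger genes and solute carriers, with median lengths of 26.1 and 37.3 kb, had lower shares than the other families named here. Collagens had the longest genes (145 kb), but 20.5% of them held a region, near the 19.7% of kinesins and dyneins (84.2 kb). Gene length was not separated from family.

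Chromosomes differed in the balance of gained and lost regions, where the whole class had 8.43% gained and 5.94% lost. Over all regions these shares were 5.91 and 7.05%. Chromosome 19 had 39 gained and 7 lost of 288 regions, chromosome 22 had 17 and 4 of 125, and chromosome 16 had 18 and 3 of 152, with median G+C contents of 56.6, 53.8 and 51.5%. Chromosome 4, with a median of 40.7%, had 7 gained and 20 lost of 118.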
